A study of Sus scrofa with 12 samples.

Results

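The cyclins, cyclin-dependent kinases (CDKs) and CDK inhibitors that act at the passage from G1 into S phase were examined in pig (Sus scrofa) embryos made by in vitro fertilisation (IVF). The 10 genes were CCND1, CCND2, CCND3, CCNE1, CCNE2, CDK2, CDK4, CDK6, CDKN1A and CDKN1B. They were chosen by name from the 29329 genes of the count table, over all 12 libraries. The symbol column of the table gave 9 of them, and CCNE1, whose row carried only the identifier ENSSSCG00000002855, was found through a gene name table. After a filter on low counts 9 of the 10 were tested, and CDK6 was left out of the tests.

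RNA from pooled embryos had been copied into cDNA by SMART-seq, which primes on poly(A) tails and amplifies the cDNA by PCR before sequencing. The con-2c and con-4c groups held control embryos, called a blank control in the labels, with the title stage 2c or 4c. The si-2c and si-4c groups held embryos injected after fertilisation with si-CCNB2, a small interfering RNA that targets the cyclin B2 mRNA; cyclin B2 is a cyclin that drives CDK1 at mitosis. Each of the 4 groups had 3 libraries, and all embryos came from IVF. The labels and methods leave unclear whether the control embryos sequenced here had also been injected. The methods describe the libraries of a group as separate sets of pooled embryos. Whether the sets came from separate fertilisations is not stated, so the p-values measure the spread between such pools.

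Title and tissue label named different stages in all 12 libraries. The tissue label was 4-cell embryo for the libraries titled 2c, and 2-cell embryo for those titled 4c. The groups follow the titles, and every direction between 2c and 4c below rests on them. Across the table, the fewest genes were called between si-4c and con-2c (0.333%) and between si-2c and con-4c (1.79%), pairs of unlike title stage. Whether the titles of si-2c and si-4c were exchanged with each other cannot be told from the labels. Read that way, these pairs would be the comparisons of treatment within a stage, and the interaction below would be the sum of both stage differences with its sign reversed. The targeted gene checked the treatment label: CCNB2 lay at 464 ± 21.7 CPM (counts in 1000000 counts of the scaled library; SD, n = 3) for con-2c and 475 ± 41.9 for con-4c, against 22.7 ± 5.58 for si-2c and 42.6 ± 3.65 for si-4c. On the log2 scale it fell by 4.36 under si-CCNB2 at 2c and fell by 3.48 at 4c (edgeR adjusted p = 1.53e-12 and 5.14e-12). Library totals ranged from 27785233 to 39510908 counts. Summed over 8 oocyte and early embryo markers in the table, no marker being at 0 in a whole group, the level lay between 2499 and 4414 CPM per library. Summed over 8 cumulus and granulosa markers it lay between 1.68 and 6.29 CPM.

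Progression from G1 into S phase is governed by kinases that work only when bound to a cyclin. D-type cyclins activate CDK4 and CDK6, E-type cyclins activate CDK2, and both complexes phosphorylate the retinoblastoma protein, which then releases E2F transcription factors. CDKN1A and CDKN1B bind these complexes and restrain the kinases. The first cleavages of mammalian embryos run largely on mRNA stored in the oocyte, until the embryonic genome is transcribed.

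Differences are given as log2 fold changes from edgeR's quasi-likelihood test, fitted to all 12 libraries, with Benjamini-Hochberg adjustment over the 17995 genes tested. Calls needed an adjusted p below 0.05 and a log2 fold change of at least 1 in either direction. The control stage contrast is con-4c minus con-2c and the si stage contrast is si-4c minus si-2c. The 2c treatment contrast is si-2c minus con-2c, and the 4c treatment contrast likewise compares the si and control libraries titled 4c. CCND2 was called in all 4 comparisons that change either the treatment or the stage. CDKN1B was called lower in si-4c against both con-4c and si-2c. CDKN1A and CDK4 passed the adjusted p in some of these comparisons with differences under the minimum fold. The other tested members, CCND1, CCND3, CCNE1, CCNE2 and CDK2, did not pass the adjusted p in any of the 6 pairs of groups under this scaling (TMM factors).

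**Figure D1:**
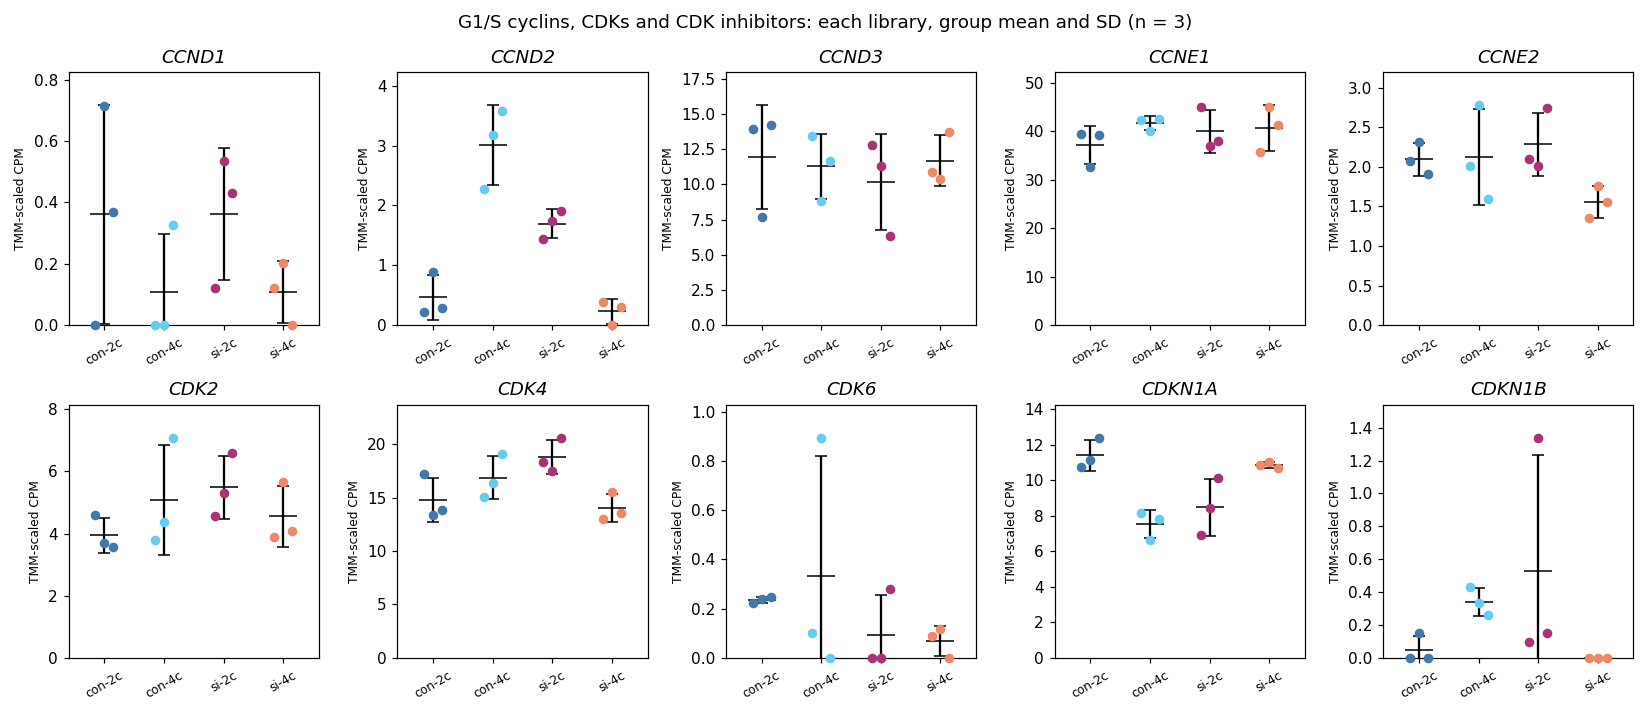
Level of each of the 10 genes in CPM, with 1 panel per gene and its own linear axis from 0; points are single libraries and bars give the mean and SD of the 3 libraries of a group. CCND2 stands at 2.27 to 3.58 CPM in con-4c and at most at 0.390 in si-4c, whereas the ranges of CCND3 overlap in all 4 groups.

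Among the D-type cyclins, CCND2 (cyclin D2, ENSSSCG00000038694, chromosome 5, 66092483 to 66114575) was the only one with calls. In con-2c its 3 libraries held 0.223, 0.891 and 0.277 CPM, from 7, 30 and 9 counts. In con-4c they held 2.27, 3.18 and 3.58 CPM, from 69, 96 and 110 counts. The con-4c libraries all lay above those of con-2c.

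In si-2c the CCND2 libraries held 1.44, 1.74 and 1.91 CPM, from 59, 65 and 89 counts. In si-4c they held 0.390, 0 and 0.299 CPM, from 13, 0 and 10 counts. The control embryos were therefore higher in the 4c libraries, and the si-CCNB2 embryos were higher in the 2c libraries, with no overlap between the stages in either treatment. The count of 0 in 1 library allows up to 3 counts, which is about 0.0888 CPM in si-4c. This floor covers counting error only, and amplified reads without molecular identifiers are not independent molecules.

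CCND2 rose by 2.68 on the log2 scale in the control stage contrast (SE 0.65, 95% interval 1.30 to 4.06, edgeR adjusted p = 0.00375). It rose by 1.86 in the 2c treatment contrast (SE 0.64, interval 0.50 to 3.21, edgeR adjusted p = 0.0389). In si-4c it fell by 3.70 against con-4c (SE 0.70, edgeR adjusted p = 0.000496) and fell by 2.87 against si-2c (SE 0.69, edgeR adjusted p = 0.00451). The call in the 2c treatment contrast was the least firm: it was kept only in the fits without con-2c replicate 2 or without 1 of the si-4c libraries. In the other 8 of the 12 fits that leave out 1 library the adjusted p lay above 0.05, at up to 0.135 without con-2c replicate 1. The other 3 calls held in all 12 of these fits, but the sizes moved. Without con-2c replicate 2, the con-2c library with 30 counts, the value was 3.57 in the control stage contrast and 2.74 in the 2c treatment contrast. Without si-4c replicates 1 and 2 in turn it was -4.31 and -3.11 in the 4c treatment contrast, and -3.49 and -2.29 in the si stage contrast.

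From high to low the CCND2 levels ran con-4c, si-2c, con-2c and si-4c. Of the neighbours in this order, con-4c and si-2c differed by less than the test could call (log2 fold change of si-2c against con-4c -0.83, interval -2.08 to 0.43, edgeR adjusted p = 0.540). The same holds for con-2c and si-4c (-1.02 for si-4c against con-2c, interval -2.54 to 0.50, edgeR adjusted p = 0.663). Leaving out 1 library moved the value of this last pair between -1.63 and -0.13. The cumulus and granulosa markers were low and moved in part with CCND2: their sum lay at 2.48 to 3.63 CPM in con-2c, 3.22 to 3.92 in con-4c, 3.02 to 6.29 in si-2c and 1.68 to 2.72 in si-4c. Of the 8 genes, 3 were at 0 throughout con-2c, 2 throughout si-2c and 2 throughout si-4c. Of the 5 that were tested, PTX3 was called higher in the 2c treatment contrast, from 0 to 0.604 CPM (edgeR adjusted p = 0.0185). TNFAIP6 was called lower in the 4c treatment contrast (edgeR adjusted p = 0.0364). No other tested marker of this list was called by edgeR in these contrasts. In the control stage contrast and the si stage contrast, where CCND2 was called, edgeR called 0 of the 5. PTX3 and TNFAIP6 were called lower in the interaction, as CCND2 was (edgeR adjusted p = 0.0311 and 0.0230). TNFAIP6 had the CCND2 order of group means, at 1.04 CPM for con-4c, 0.848 for si-2c, 0.316 for con-2c and 0.0900 for si-4c. Of the 6 sperm markers listed, AKAP4 and CRISP2 were in the table. AKAP4 held 13, 0 and 19 counts for con-4c and 7, 23 and 54 for si-2c, and was at 0 in all libraries of con-2c and si-4c. It was called in the same 4 contrasts and directions as CCND2 (edgeR adjusted p = 0.0258 and 0.0167 between the stages of control and si embryos, and 0.0169 and 0.0242 between the treatments at 2c and 4c). By limma-voom AKAP4 was called in the 2c treatment contrast and the si stage contrast only, whereas CCND2 was called in all 4. CRISP2 had at most 19 counts in a library and was not tested. The part of these markers in the CCND2 and CDKN1B results was not tested. In pooled embryos, fewer cells that carry a transcript and less of it per cell cannot be told apart.

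CCND3 (cyclin D3, ENSSSCG00000032284, chromosome 7, 37087336 to 37182462) was well above the floor in every library. It was measured at 14.0, 7.67 and 14.2 CPM in con-2c, at 13.4, 8.82 and 11.6 in con-4c, at 12.8, 11.3 and 6.31 in si-2c and at 10.9, 10.4 and 13.7 in si-4c. All 4 groups overlapped. The log2 differences in the 6 pairs lay between -0.24 and 0.21, with 95% intervals within -0.79 and 0.76, so differences of the size seen in CCND2 lay outside them.

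CCND1 (cyclin D1, ENSSSCG00000037900, chromosome 2, 3621242 to 3633380) was at the limit of detection. Its counts were 0, 24 and 12 for con-2c, 0, 0 and 10 for con-4c, 5, 20 and 20 for si-2c, then 4, 7 and 0 for si-4c. The group means were 0.361 ± 0.357, 0.108 ± 0.188, 0.362 ± 0.215 and 0.107 ± 0.102 CPM (SD, n = 3). The 2c means lay above the 4c means under both treatments, but the groups overlapped. The log2 fold change of the control stage contrast was -1.70 with an interval from -5.19 to 1.78 (edgeR adjusted p = 0.470), so no difference was detectable at this depth. Leaving out 1 library moved this value between -6.67 and -0.76 (edgeR adjusted p from 0.0720 to 0.821).

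No difference in the E-type cyclins passed the test with TMM factors, and some did with library totals. CCNE1 (cyclin E1, chromosome 6, 39919541 to 39933224) held 39.5, 32.5 and 39.3 CPM in con-2c and 42.3, 40.0 and 42.6 in con-4c. The si-2c libraries held 45.0, 36.9 and 38.0 CPM, and those of si-4c 35.7, 45.1 and 41.3. The con-4c libraries lay just above those of con-2c and the other pairs of groups overlapped.

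The largest CCNE1 log2 difference was 0.17 in the control stage contrast (SE 0.11, edgeR adjusted p = 0.277). Its intervals in the 6 pairs stayed within -0.30 and 0.40. A change of the minimum fold lay outside them in either direction. With library totals CCNE1 passed the adjusted p in the control stage contrast (0.44, edgeR adjusted p = 0.0166), in the 2c treatment contrast (0.50, edgeR adjusted p = 0.00714) and, with its sign turned, in the si stage contrast (-0.36, edgeR adjusted p = 0.0453). Relative to the median gene these differences were 0.06, -0.02 and 0.15 under both scalings. A change of scaling shifts all genes of a contrast by nearly the same amount. The match between scalings was therefore fixed in advance, here and for the other members below, and adds no evidence.

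CCNE2 (cyclin E2, ENSSSCG00000006095, chromosome 4, 41802090 to 41821870) averaged 2.10 ± 0.207 CPM for con-2c, 2.13 ± 0.605 for con-4c, 2.28 ± 0.403 for si-2c and 1.56 ± 0.207 for si-4c (SD, n = 3). The si-4c libraries, at 1.35, 1.76 and 1.55 CPM, lay below all libraries of si-2c, at 2.10, 2.01 and 2.75, and below those of con-2c, at 2.07, 2.32 and 1.91. The log2 fold change of the si stage contrast was -0.55 (edgeR adjusted p = 0.186) and that against con-4c, whose libraries overlapped with si-4c, was -0.45 (edgeR adjusted p = 0.265). Neither passed the test. The intervals of the 6 pairs lay within -1.18 and 0.74, so a fall past the minimum fold lay inside the widest of them. With library totals the si stage contrast passed (-0.94, edgeR adjusted p = 0.0224), at -0.43 relative to the median gene under both scalings.

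Of the kinases, CDK2 (the partner of cyclin E, ENSSSCG00000037597, chromosome 5, 21365723 to 21372170) held 4.58, 3.68 and 3.57 CPM for con-2c and 3.78, 4.37 and 7.09 for con-4c. The si-2c libraries held 4.56, 5.30 and 6.59 CPM, and those of si-4c 3.90, 5.67 and 4.09. All groups overlapped, and the widest spread was that of con-4c, at 5.08 ± 1.76 CPM (SD, n = 3). No pair of groups passed the test for CDK2 with TMM factors, with log2 fold changes of 0.37 in the control stage contrast (edgeR adjusted p = 0.299) and 0.48 in the 2c treatment contrast (edgeR adjusted p = 0.184). With library totals the latter passed (0.88, edgeR adjusted p = 0.0140), and relative to the median gene it was 0.35 and 0.36 under the 2 scalings.

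CDK4 (a partner of the D-type cyclins, ENSSSCG00000025092, chromosome 5, 23039206 to 23041959) held 17.2, 13.4 and 13.8 CPM in con-2c and 15.1, 16.4 and 19.1 in con-4c. The si-2c libraries held 18.4, 17.5 and 20.6 CPM, and those of si-4c 13.0, 15.6 and 13.6. Every si-2c library lay above every library of con-2c and si-4c, and the si-2c and con-4c ranges overlapped.

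CDK4 fell by 0.42 on the log2 scale in the si stage contrast (SE 0.14, edgeR adjusted p = 0.0279), which is under the minimum fold. It no longer passed without si-2c replicate 1 (edgeR adjusted p = 0.0562), si-2c replicate 3 (0.0994), si-4c replicate 1 (0.106) or si-4c replicate 3 (0.0920). In the 2c treatment contrast the log2 fold change was 0.35 (edgeR adjusted p = 0.0671) and in the 4c treatment contrast it was -0.26 (edgeR adjusted p = 0.149). Both passed with library totals (0.75 and -0.52, edgeR adjusted p = 0.000729 and 0.0108), as did the control stage contrast (0.46, edgeR adjusted p = 0.0206), and limma-voom passed the 2c treatment contrast (adjusted p = 0.0481). The order of CDK4 levels was si-2c, con-4c, con-2c and si-4c, and no neighbours in it differed by the test (edgeR adjusted p = 0.640, 0.316 and 0.948).

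CDK6 (the second kinase partner of the D-type cyclins, ENSSSCG00000040183) lay on chromosome 9 at 72510858 to 72765631, where RefSeq lists the locus as a long non-coding RNA. Its counts were 7, 8 and 8 for con-2c, 3, 27 and 0 for con-4c, 0, 0 and 13 for si-2c, then 3, 4 and 0 for si-4c. The gene had too few counts for the tests. Its highest level was 0.895 CPM, in 1 con-4c library with 27 counts, beside 0.0987 and 0 CPM in the others. As a scale, 3 counts are 0.0726 to 0.0986 CPM on average in the 4 groups.

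The inhibitors moved in different ways. CDKN1A (ENSSSCG00000001565, chromosome 7, 32354776 to 32363771), a target of p53 that inhibits cyclin-CDK2 complexes, held 10.7, 11.1 and 12.4 CPM in con-2c and 8.13, 6.63 and 7.80 in con-4c. In si-2c it held 6.89, 8.44 and 10.1 CPM and in si-4c 10.8, 11.0 and 10.7. The control embryos were lower in 4c than in 2c without overlap, and the si-CCNB2 embryos were higher in 4c than in 2c, again without overlap.

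CDKN1A fell by 0.60 on the log2 scale in the control stage contrast (SE 0.16, 95% interval -0.94 to -0.26, edgeR adjusted p = 0.00708). It rose by 0.53 in the 4c treatment contrast (SE 0.16, interval 0.19 to 0.87, edgeR adjusted p = 0.0153). The rise no longer passed without con-4c replicate 2 (0.45, edgeR adjusted p = 0.0703). Both changes were under the minimum fold, at 0.659 and 1.44 times the level of the reference group. In the 2c treatment contrast its log2 fold change was -0.43 (edgeR adjusted p = 0.0522, and 0.0383 by limma-voom) and in the si stage contrast it was 0.36 (edgeR adjusted p = 0.106), with the groups apart in both. The order of levels was con-2c, si-4c, si-2c and con-4c, and no neighbours differed by the test (edgeR adjusted p = 0.966, 0.106 and 0.670).

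The CDKN1A result depends on the scaling of the libraries. Scaled by library totals, its log2 fold changes became -0.33 in the control stage contrast (edgeR adjusted p = 0.167) and 0.27 in the 4c treatment contrast (edgeR adjusted p = 0.267). That of the si stage contrast turned to -0.03, and that of the 2c treatment contrast was -0.03 as well (edgeR adjusted p = 0.907). This scaling moved the median of all genes from 0.11 to 0.38 in the control stage contrast and from -0.11 to -0.37 in the 4c treatment contrast. Relative to the median gene, CDKN1A lay at -0.71 and 0.64 under both scalings, a match fixed in advance as for CCNE1. The summed oocyte and early embryo markers had the same order of groups as CDKN1A, with sums of 3952 to 4414 CPM in con-2c, 3691 to 3815 in si-4c, 2753 to 2945 in si-2c and 2499 to 2564 in con-4c. Of the 8 markers only OOEP had that order by itself. For 6 of the 8, both con-2c and si-4c lay above both con-4c and si-2c, while BMP15 was lowest in con-2c (887 CPM) and highest in si-2c (1228), and ZP2 was highest in si-2c (178). Their part in the CDKN1A result was not tested.

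CDKN1B (ENSSSCG00000037144, chromosome 5, 59731224 to 59735831), an inhibitor of cyclin E-CDK2 known for its role in cell cycle exit, was rare. It had 0, 5 and 0 counts for con-2c, 13, 10 and 8 for con-4c, 4, 50 and 7 for si-2c, and 0 for each of the 3 libraries of si-4c. Every con-4c and si-2c library thus held some reads and no si-4c library did. In CPM the con-4c libraries held 0.428, 0.331 and 0.260, and those of si-2c 0.0974, 1.34 and 0.150.

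CDKN1B was called lower in the 4c treatment contrast (edgeR adjusted p = 0.0226) and against si-2c (edgeR adjusted p = 0.0182). As si-4c was at 0, only bounds can be given: with 3 counts per library as the floor, it was at least 3.83-fold lower than con-4c and at least 5.96-fold lower than si-2c. The latter bound rests on si-2c replicate 2 and is 1.39-fold without it. The bound against con-4c is 3.33-fold without con-4c replicate 1. The first call was lost without any of the si-4c libraries in turn, with adjusted p of 0.0560, 0.0584 and 0.0573 without replicates 1, 2 and 3. The second was lost without si-2c replicate 2, the library with 50 counts (edgeR adjusted p = 0.114), and without si-4c replicate 2 (edgeR adjusted p = 0.0510). In the control stage contrast and the 2c treatment contrast the fitted values did not pass the test (edgeR adjusted p = 0.206 and 0.137), and both were called once con-2c replicate 2, with its 5 counts, was left out (edgeR adjusted p = 0.0485 and 0.0419).

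**Figure D2:**
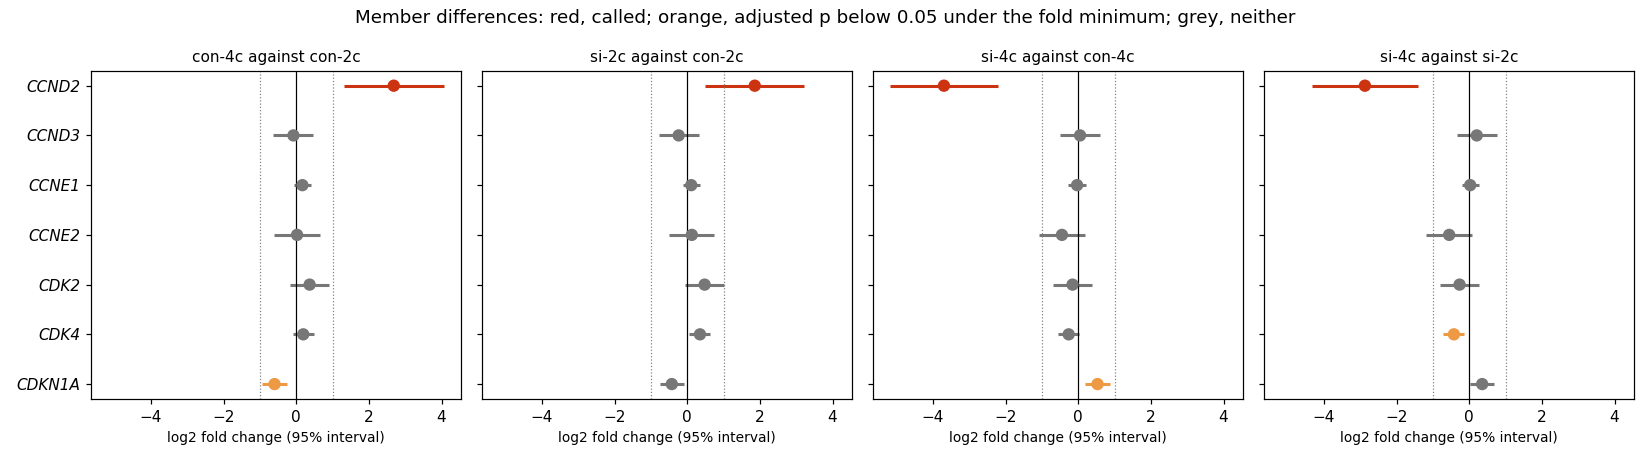
Log2 fold change of 7 members in the control stage contrast, the 2c treatment contrast, the 4c treatment contrast and the si stage contrast, with 95% intervals from edgeR; red marks a call, orange an adjusted p below 0.05 under the minimum fold and grey neither, and dotted lines stand at log2 fold changes of 1 in both directions. Of the 7 only CCND2 passes the dotted lines with its estimates, and CCND1, CDK6 and CDKN1B are left out because their groups lie at or near 0.

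Counted together, members were called about as often as genes at large in most comparisons. In the control stage contrast 1 of 9 tested members was called (11.1%), against 17.7% of all genes tested. In the 2c treatment contrast 1 of 9 was called, against 12.5% of all genes. In the 4c treatment contrast 2 of 9 were called (22.2%), against 19.0%, and in the si stage contrast 2 of 9, against 13.3%. With so few members, 1 gene more or less moves these shares by as much as they differ from the background.

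Without the minimum fold, 2 of 9 members passed the adjusted p in the control stage contrast (CCND2 and CDKN1A), where 35.8% of all genes did. In the 2c treatment contrast 1 of 9 passed (CCND2), against 29.0%. In the 4c treatment contrast 3 of 9 passed (CCND2, CDKN1A and CDKN1B), against 36.8%, and in the si stage contrast 3 of 9 (CCND2, CDK4 and CDKN1B), against 28.9%. The median log2 fold change of the tested members was 0.17 in the control stage contrast, 0.12 in the 2c treatment contrast, -0.16 in the 4c treatment contrast and -0.42 in the si stage contrast. Over all genes tested these medians were 0.11, 0.12, -0.11 and -0.13. Comparisons that hold the same group share its libraries and are not independent, whereas the control stage contrast and the si stage contrast share none.

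Whether the stage difference depended on the treatment was tested by the interaction, the log2 difference of the 4c treatment contrast minus that of the 2c treatment contrast. CCND2 (-5.56, SE 0.95, 95% interval -7.56 to -3.55, edgeR adjusted p = 0.000135) and CDKN1B (edgeR adjusted p = 0.00633) were called lower. The CCND2 value was -6.44 without con-2c replicate 2 and -4.96 without si-4c replicate 2, and it also moved by over 1.5 times in fold, in the negative direction, without si-4c replicate 1. That made 2 of 9 members, where 32.4% of all genes were called. CDKN1A had an interaction of 0.96 (SE 0.22, interval 0.48 to 1.43, edgeR adjusted p = 0.00221) and CDK4 one of -0.61 (SE 0.19, edgeR adjusted p = 0.0161), both under the minimum fold. CDKN1A passed it, and was called, without con-2c replicate 1 (1.01), con-4c replicate 1 (1.02) or si-2c replicate 3 (1.11).

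With CDKN1A and CDK4 the adjusted p passed in 4 of 9 members, against 45.5% of all genes. The interactions of CCND3 (0.29, edgeR adjusted p = 0.570), CCNE1 (-0.14, edgeR adjusted p = 0.506), CCNE2 (-0.57, edgeR adjusted p = 0.291) and CDK2 (-0.63, edgeR adjusted p = 0.169) did not pass. With library totals those of CCNE1 (-0.79, edgeR adjusted p = 0.00217), CCNE2 (-1.23, edgeR adjusted p = 0.0234) and CDK2 (-1.29, edgeR adjusted p = 0.00773) did, and that of CCND3 turned to -0.35 (edgeR adjusted p = 0.476). The median gene moved from -0.23 to -0.88 there. Under library totals the CDKN1A interaction was 0.30 (edgeR adjusted p = 0.343). Relative to the median gene it was 1.19 under both scalings, again a match fixed in advance. The CDK4 interaction was -1.27 under library totals, and -0.38 and -0.39 relative to the median gene. Without con-4c replicate 3 the CDK4 interaction no longer passed (edgeR adjusted p = 0.0561).

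**Figure D3:**
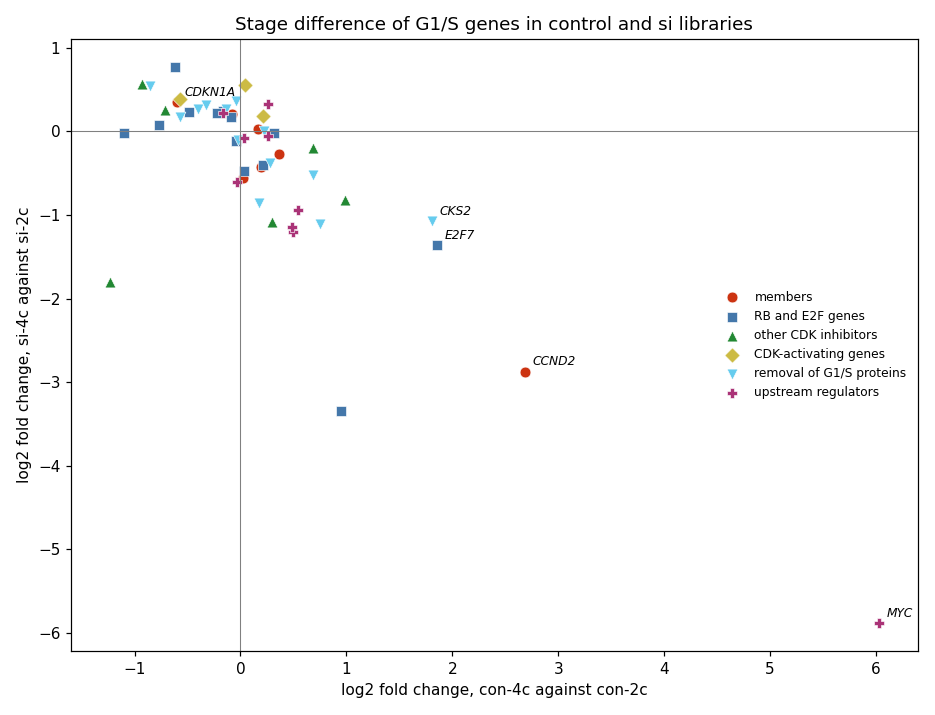
Log2 fold change of 4c against 2c in control embryos (horizontal axis) and in si-CCNB2 embryos (vertical axis), for members and genes of the other lists, with no library shared between the axes. CCND2 lies at 2.68 and -2.87 and CDKN1A at -0.60 and 0.36, so each has opposite signs on the axes; CCND1, CDKN1B and MYCN are left out because their groups lie at or near 0, and CDK6 was not tested.

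The remaining pairs of groups differ in both treatment and title stage. In si-4c against con-2c 0 of 9 members were called by edgeR, and 0 had an unadjusted p below 0.05. In si-2c against con-4c the counts were 0 and 0 as well. DESeq2 and limma-voom also called 0 members in both pairs. Of all genes tested, edgeR called 0.333% in the first of these pairs and 1.79% in the other, and without the minimum fold 0.672% and 7.54%. Between si-4c and con-2c the log2 differences of CDK4 and CDKN1A were both -0.07, that of CCND3 was -0.03 and that of CCNE1 0.13. Between si-2c and con-4c they were 0.16 for CDK4, 0.17 for CDKN1A, -0.16 for CCND3 and -0.06 for CCNE1. CCNE2 lay at -0.43 between si-4c and con-2c, whose libraries did not overlap, and at 0.10 in the other pair. CCND2, at -1.02 and -0.83 in the 2 pairs, had wide intervals, and its si-2c libraries all lay below those of con-4c. For the rarest members the values were wider still, at -1.71 and 1.70 for CCND1 in the 2 pairs (edgeR adjusted p = 0.806 and 0.693). CDKN1B lay at 0.63 in si-2c against con-4c (edgeR adjusted p = 0.903). Between si-4c and con-2c no size is given for CDKN1B (edgeR adjusted p = 0.507). There si-4c was at 0 and con-2c had 5 counts in 1 library. The shares of called genes were thus the lowest of the 6 pairs, which does not show that the members were alike.

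Genes around the 10 members were taken from 5 lists: RB and E2F genes (13 tested), other CDK inhibitors (6), genes that activate CDKs (3), genes for the removal of G1/S proteins (13) and upstream regulators (10). CDC25A and CDK5 were not analysed here. In the control stage contrast the called genes were E2F7 of the RB and E2F list, CKS2 of the removal list, and MYC and MYCN of the upstream list, all higher by edgeR. The same 4 genes were called higher in the 2c treatment contrast. CDKN2D, of the other CDK inhibitors, lay just under the minimum fold in the control stage contrast (0.99, edgeR adjusted p = 0.0452) and was called higher there by DESeq2 and with RLE factors (1.02 each), with library totals (1.26) and with only the groups compared. The medians of the 5 lists lay between -0.20 and 0.37 in the control stage contrast (0.11 for all genes) and between -0.37 and 0.40 in the 2c treatment contrast (0.12 for all genes). The 4 of 45 list genes (8.89%) stand against the 17.7% and 12.5% of all genes given above.

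E2F7, an atypical E2F that represses E2F targets, averaged 3.18 ± 0.301 CPM for con-2c, 11.5 ± 1.45 for con-4c, 8.73 ± 0.716 for si-2c and 3.39 ± 0.399 for si-4c (SD, n = 3). It rose by 1.86 in the control stage contrast (SE 0.18, edgeR adjusted p = 3.27e-07) and fell by 1.76 in the 4c treatment contrast (edgeR adjusted p = 5.53e-07). The order of its group means was that of CCND2 for con-4c and si-2c, with con-2c and si-4c close together.

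CKS2, a small subunit that binds CDKs, averaged 574 ± 43.6 CPM for con-2c, 2013 ± 65.6 for con-4c, 1177 ± 81.6 for si-2c and 559 ± 63.4 for si-4c (SD, n = 3). It rose by 1.81 in the control stage contrast (SE 0.09, edgeR adjusted p = 1.09e-10) and by 1.04 in the 2c treatment contrast (edgeR adjusted p = 1.86e-07). In si-4c it fell by 1.85 against con-4c and by 1.07 against si-2c (edgeR adjusted p = 8.33e-11 and 1.23e-07). The call in the 2c treatment contrast was lost without con-2c replicate 1 or si-2c replicate 2, with a log2 fold change of 0.98 in each fit. Between si-2c and con-4c it differed by -0.77 (edgeR adjusted p = 3.06e-05).

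MYC, a transcription factor known to act upstream of CCND2, held 0, 7 and 8 counts for con-2c, 311, 270 and 353 for con-4c, 240, 194 and 250 for si-2c, then 0, 0 and 9 for si-4c. It was called higher in con-4c and the 2c treatment contrast (edgeR adjusted p = 6.18e-07 and 5.93e-06) and lower in the 4c treatment contrast and the si stage contrast (edgeR adjusted p = 3.33e-07 and 3.01e-06). MYCN, a relative of MYC, had 264, 187 and 361 counts in con-4c and 205, 182 and 289 in si-2c, and was at 0 in all libraries of con-2c and si-4c. Against a floor of 3 counts per library it was at least 96.2-fold higher in con-4c and at least 58.0-fold higher in si-2c than in con-2c (edgeR adjusted p = 2.17e-08 and 1.01e-07). These bounds take the means of con-4c and si-2c as exact. They were 80.7-fold without con-4c replicate 3 and 53.5-fold without si-2c replicate 3. MYC and MYCN therefore were high in the groups in which CCND2 was high. They are named because they were called higher in the control stage contrast, where CCND2 was called higher as well. Of all genes tested, only 1.79% were called between si-2c and con-4c, and 0.333% between si-4c and con-2c. Sharing this group pattern is thus not particular to these genes, and a link with CCND2 was not tested.

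**Figure D4:**
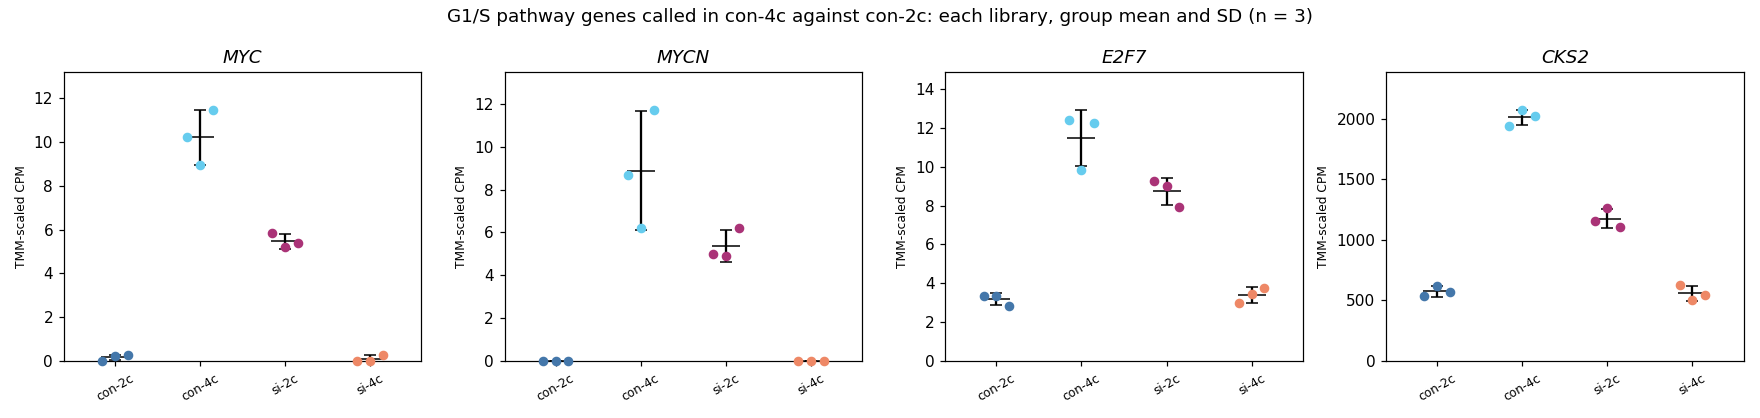
Levels of genes of the surrounding lists in CPM per library, drawn like the member panels, with points for libraries and bars for mean and SD (n = 3). E2F7, CKS2, MYC and MYCN are high in con-4c and si-2c and low in con-2c and si-4c, with CKS2 at 2013 CPM on average in con-4c and 1177 in si-2c.

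In si-4c the lists held calls in both directions. Against con-4c, E2F6 and E2F7 fell in the RB and E2F list, CKS2 and FBXW7 in the removal list, and MYC and MYCN in the upstream list. Against si-2c the called genes were the same 6 and all fell. With CDKN2B and CDKN2D below, 8 of 45 list genes (17.8%) were called against con-4c and 6 of 45 (13.3%) against si-2c, where 19.0% and 13.3% of all genes were. E2F6, FBXW7, and the genes CDKN2B, CDKN2D, CKS1B, DTL, DDB1 and FOXO3 given next were chosen after their values were seen, as the called genes of their lists.

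E2F6, a repressor of the E2F family, was called lower in the 4c treatment contrast (edgeR adjusted p = 0.00438), with 23 to 32 counts per library for con-4c and at most 4 for si-4c. Its si-4c mean of 0.0698 CPM lay under the value of 3 counts per library, 0.0888 CPM, so the size of the fall is not given. FBXW7, which marks cyclin E for degradation, fell by 1.11 (edgeR adjusted p = 0.00231), from 9.94 ± 1.06 to 4.60 ± 1.21 CPM (SD, n = 3). It lost this call without si-4c replicate 3 (-0.99), and its call against si-2c without that library or without si-2c replicate 1 (-0.90). Among the other CDK inhibitors, CDKN2B, which binds CDK4 and CDK6, rose by 1.02 in the 4c treatment contrast (edgeR adjusted p = 8.47e-06), and CDKN2D, of the same INK4 family, fell by 1.03 (edgeR adjusted p = 0.0369).

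The CDKN2B change stood near the minimum fold and was not called with RLE size factors (0.98), library totals (0.76), DESeq2 (0.98) or a filter of 10 CPM (0.91). CDKN2D lost its call without any 1 of the con-4c libraries and without si-4c replicate 1 or 3, with edgeR adjusted p up to 0.150. Members of the same inhibitor list thus differed in direction.

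In the interaction the lists gave 2 of 13 called RB and E2F genes (E2F6 and E2F7 lower), 2 of 6 other inhibitors (CDKN2B higher, CDKN2D lower), 5 of 13 removal genes and 3 of 10 upstream regulators (MYC, MYCN and FOXO3 lower). These were 12 of 45 list genes (26.7%), against 32.4% of all genes. In the removal list CKS1B, a cofactor for the degradation of CDKN1B, was higher by 1.40. CKS2 (-2.88), FBXW7 (-1.87), DTL (-1.21) and DDB1 (-1.03) were lower, of which DTL and DDB1 belong to a ubiquitin ligase that acts on CDKN1A. The CKS1B call was lost with library totals (0.74), and so was that of CDKN2B (0.84). The DDB1 call was lost without con-2c replicate 1 or 2, con-4c replicate 1, si-2c replicate 3 or si-4c replicate 1 or 2, with values from -0.99 to -0.88. FOXO3, a transcription factor known to activate CDKN1B, had an interaction of -1.48. Of the 3 genes that activate CDKs, 0 were called in the interaction by edgeR, DESeq2 and limma-voom, and 2 had an unadjusted p below 0.05. These 2, CCNH (0.52) and MNAT1 (0.96), chosen after their values were seen, passed the adjusted p under the minimum fold (edgeR adjusted p = 0.0416 and 3.54e-07).

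For members whose highest group mean was at least 10 CPM, the genes with the most similar pattern were sought by Pearson's r of log2 CPM over the 12 libraries, among 5777 genes. EPSTI1 (0.915) and SRP68 (0.856) were closest to CCND3, and PHF20L1 (0.878) and ZMYND11 (0.818) to CCNE1. TRA2A (0.925) and NUP133 (0.882) were closest to CDK4, and ASAP1 (0.945) and LAMB1 (0.940) to CDKN1A. The points are the same libraries for every gene and share their scaling, so these are descriptions without a test.

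The positions above are those of RefSeq on Sscrofa11.1, the build that the submitters' processing notes name. CCND2 overlaps a long non-coding RNA there, CCND3 overlaps TAF8 and CCNE2 overlaps INTS8. The use of strand in counting is not given in the sources used here, so reads of these overlapping genes cannot be told apart and their values are uncertain. Levels were not compared between genes, as transcript lengths were not used here.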

How the data were processed

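SMART-seq libraries of pooled porcine embryos were analysed (12 libraries, 4 groups of 3 named by their titles). The authors deposited 1 table of whole-number counts per gene, which were not normalized. The submitters' processing notes name cutadapt 1.9, HISAT2 2.2.1, StringTie 2.1.6, DESeq2, edgeR and the build Sscrofa11.1, without their roles. The annotation, the counting settings and the use of strand are not given in the sources used here.

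The 10 genes and the lists around them were chosen with earlier results of these data known. The tests used edgeR 4.0.16 in R 4.3.3 (filterByExpr, TMM factors 0.852 to 1.21, 1 mean per group, all 12 libraries, quasi-likelihood test). The common dispersion was 0.0745, which is a variation of 27.3% between libraries beyond counting error. It is a summary over genes, and the quasi-likelihood test also estimated a spread for each gene. CPM are edgeR's, scaled by TMM. Intervals are at 95%. P-values were adjusted by Benjamini-Hochberg over the 17995 genes tested. The script was tested on simulated data.

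All members are named. Genes of the lists are named where called in con-4c against con-2c, and the others named were chosen after their values were seen. Cell type markers were summed per library. Counts of replicate libraries differed beyond sampling noise (chi-square over its degrees of freedom, 7.27 to 38.7 in 12 pairs), so none was taken as a copy. Alternatives were RLE factors, library totals, DESeq2 1.42.0, limma-voom (limma 3.58.1), no filter, at least 10 CPM in 3 libraries, only the groups compared, no minimum fold, a replicate block and each library left out.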

Additional observations from a re-analysis of the deposited data

Results flagged for a closer look

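In 4 of the 9 tested members the difference between si-CCNB2 and control embryos was not the same in the 4c as in the 2c libraries, by edgeR's test of the interaction. That is near the share of all genes, of which 45.5% passed the adjusted p. On the log2 scale the interaction of CCND2 was -5.56 (edgeR adjusted p = 0.000135), with calls in opposite directions at the 2 title stages. That of CDK4 was -0.61 (edgeR adjusted p = 0.0161) and that of CDKN1A 0.96 (edgeR adjusted p = 0.00221). The fitted interaction of CDKN1B was -9.87 (edgeR adjusted p = 0.00633), which is no bound, as all si-4c libraries were at 0. It was -13.8 without con-2c replicate 2 and -7.81 without si-2c replicate 2. That of CCND2 was -6.44 without con-2c replicate 2. All 4 rest on the stage in the titles, which the tissue labels contradict.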

How the results depend on the processing

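Of 1271 values of members under the alternatives, 1186 kept their direction and their side of the threshold, 13 gained a call, 14 lost one and 58 values that were not called changed sign. The filter of at least 10 CPM in 3 libraries left CCND3, CCNE1, CDK4 and CDKN1A, so 0 members were called in the 4 comparisons and in the interaction. Without the minimum fold, 2 members passed in the control stage contrast and 4 in the interaction. With only the groups compared, 1 was called in the 4c treatment contrast and 1 in the si stage contrast. Library totals gave 5 calls in the interaction, CCND2, CCNE2, CDK2, CDK4 and CDKN1B; the median of all genes moved there from -0.23 to -0.88. Leaving out 1 library at a time, 1 to 2 members were called in the control stage contrast, 0 to 2 in the 2c treatment contrast, 1 to 2 in the 4c treatment contrast, 1 to 2 in the si stage contrast and 2 to 3 in the interaction.

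With the replicate block 0 members were called in the 2c treatment contrast, CCND2 having an adjusted p of 0.0621 by edgeR; no other comparison changed its count. Of the list genes, the block ended the CDKN2D call in the 4c treatment contrast (-1.03, edgeR adjusted p = 0.0526). The replicate numbers were not shown to pair the libraries: over 18 pairs of same-numbered libraries the correlation of deviations from the group means lay between -0.0495 and 0.0290. Low counts limit CCND1 and CDKN1B, and CDK6 was not tested.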
